A study of Mus musculus with 4 samples.

Results

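The haemoglobin and red cell genes described here are 8 genes of the mouse erythroid lineage: the adult globin genes Hba-a1, Hba-a2 and Hbb-bt, the haem synthesis gene Alas2, the membrane genes Slc4a1 and Epb42, the haemoglobin chaperone gene Ahsp and the transcription factor gene Klf1. The genes were chosen by their measured values, because earlier results of the same arrays had shown globin genes apart from the other genes, so their differences are given as a description, without a test. A probe was matched through its RefSeq accession for 7 of the 8, among 32585 genes or identifiers on the arrays, of which 20144 had a symbol. No probe was matched to Ahsp, which was not analysed here.

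Total RNA of the spinal cord and of the duodenum was measured on 4 one-colour Agilent arrays, with 1 array for each tissue of a wild-type (WT) littermate and of a mouse labelled IP6K2-KO. The IP6K2-/- line lacks the exon for the kinase domain of IP6K2, an enzyme that makes inositol pyrophosphates. The labels describe males of 20 weeks in both genotypes, given 1 week of purified diet in place of normal diet followed by a fast of 48 h, so the WT animals share the diet and the fast. With 1 array per group, no difference has a replicate check and none was tested, and the labels do not tie the arrays of a genotype to 1 animal or to several. The study's methods describe mice killed by blood withdrawal and flushed with buffered saline through the heart, but do not state whether this held for the array samples.

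Red cells carry oxygen on haemoglobin, a tetramer of alpha and beta globin chains that each hold a haem. The precursors that make these chains live in bone marrow and, in mice, in the spleen, while young red cells released into the blood still hold globin and Alas2 mRNA and lose it as they mature. Neither adult spinal cord nor gut is known as a site of red cell production. In an extract of whole tissue, fewer red cells and less mRNA per red cell cannot be told apart.

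Klf1 and GATA factors bind CACCC and GATA motifs in erythroid genes, and promoters of 6 of the 8 genes were in the RefSeq table of build GRCm38.p6, without an entry for Slc4a1 and Ahsp. The 250 bases before the annotated start are printed for 4 genes: an alpha globin, a beta globin, the haem enzyme and the transcription factor. No membrane gene is printed, although Epb42 had an entry. Capitals mark GATA motifs (the word AGATAA, also with T as its first letter and with G as its last) and CACCC, each on either strand, and all letters read 5′ to 3′ along the gene. The windows are chr11:32283422-32283671 on the plus strand for Hba-a1, chr7:103813924-103814173 on the minus strand for Hbb-bt, chrX:150547167-150547416 on the plus strand for Alas2 and chr8:84901732-84901981 on the plus strand for Klf1.
Hba-a1: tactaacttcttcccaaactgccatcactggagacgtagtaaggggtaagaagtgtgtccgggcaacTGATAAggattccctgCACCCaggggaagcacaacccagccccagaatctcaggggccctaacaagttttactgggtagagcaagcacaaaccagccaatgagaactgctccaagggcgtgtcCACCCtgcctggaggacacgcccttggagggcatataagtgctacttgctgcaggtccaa
Hbb-bt: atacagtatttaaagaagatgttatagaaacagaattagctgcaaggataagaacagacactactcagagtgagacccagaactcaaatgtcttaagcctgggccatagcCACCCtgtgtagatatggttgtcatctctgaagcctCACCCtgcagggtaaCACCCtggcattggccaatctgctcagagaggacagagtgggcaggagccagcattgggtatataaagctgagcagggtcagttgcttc
Alas2: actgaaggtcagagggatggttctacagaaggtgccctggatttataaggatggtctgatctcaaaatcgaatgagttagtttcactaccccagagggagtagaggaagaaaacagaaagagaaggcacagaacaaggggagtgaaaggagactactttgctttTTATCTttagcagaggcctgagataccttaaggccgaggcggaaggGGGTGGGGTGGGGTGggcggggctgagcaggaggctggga
Klf1: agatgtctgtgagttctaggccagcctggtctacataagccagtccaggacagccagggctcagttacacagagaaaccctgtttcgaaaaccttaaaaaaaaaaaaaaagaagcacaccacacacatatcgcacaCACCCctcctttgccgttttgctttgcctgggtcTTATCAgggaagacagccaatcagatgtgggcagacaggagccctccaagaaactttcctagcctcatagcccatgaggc

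Matches to the 4 GATA words occurred once each in the windows of Hba-a1, Hba-a2, Alas2, Epb42 and Klf1 and not in that of Hbb-bt, and 26.5% of the 32851 promoters of the same length held at least 1. The Alas2 match ended 81 bases and the Klf1 match 75 bases before the start. CACCC matched 3 times in Hbb-bt, 3 times in Alas2, 2 times in each alpha globin window, once in Klf1 and not in Epb42, against 52.0% of all promoters with at least 1. In Alas2 the 3 CACCC matches lay on the opposite strand and followed each other without a gap. CCAAT, searched on both strands, was found 3 times in Hbb-bt and once in Hba-a1, Hba-a2 and Klf1 (33.85% of all promoters) and not in Alas2 or Epb42. TATAA ended 23 bases before the start of Hba-a1 and 24 bases before that of Hbb-bt, was also found in Hba-a2, Alas2 and Epb42 but not in Klf1, and occurred in 22.8% of all promoters. None of the searched words contains another, and a match is a match of letters only. With a shift of 3 bases in the annotated start, the Hba-a1 and Hba-a2 entries were identical over all 297 bases compared.

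The arrays differed in overall signal, which bears on every value below. The 75th percentile of the processed signal (an intensity after background subtraction) was 905 on the WT spinal cord array, 971 on the spinal cord array labelled KO, 68.0 on the WT duodenum array and 323 on the duodenum array labelled KO, and from 51.6% to 77.4% of the probes on an array exceeded background clearly (the scanner software's call, written here as well above background). Levels are therefore given as signals and, after log2 and subtraction of the 75th percentile of the array, as normalized log2 levels. The tissue labels matched marker genes: 9 of 9 neural markers with a probe were well above background on both spinal cord arrays, and 10 of 10 duodenal markers on both duodenum arrays. The Ip6k2 probe opposed the spinal cord label, with a signal of 452 for WT and 1320 for KO, so genotypes are given as labelled. The files do not place this probe inside or outside the deleted exon, and its normalized log2 difference in the duodenum was −0.21.

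Hba-a1 encodes the alpha chain of adult haemoglobin and lies at chr11:32283672-32284486. Its signal was 40863 in WT spinal cord, 81434 in spinal cord labelled KO, 17436 in WT duodenum and 5007 in duodenum labelled KO. Both spinal cord arrays were brighter than both duodenum arrays, and the label with the higher signal was KO in the spinal cord and WT in the duodenum. In normalized log2 levels the same arrays read 5.50, 6.39, 8.0 and 3.96, so WT duodenum, not spinal cord, was highest once each array was scaled to its own 75th percentile.

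Hba-a2, the second adult alpha globin gene (chr11:32296492-32297310), gave signals of 135078 and 186448 in WT and KO-labelled spinal cord and 83828 and 21815 in WT and KO-labelled duodenum. The order of the 4 arrays was that of Hba-a1, with a smaller step in the spinal cord. Its normalized log2 levels in the same order were 7.22, 7.58, 10.27 and 6.08. Hbb-bt (chr7:103812524-103813923), an adult beta globin gene, read 25124, 60099, 2459 and 1446. Between the WT arrays its signal was 10.2-fold lower for duodenum, a wider gap between the tissues than the 2.34-fold of Hba-a1 and 1.61-fold of Hba-a2. Normalized, the levels were 4.79, 5.95, 5.18 and 2.16. Transcripts of the alpha genes are nearly identical, as are those of the beta genes, and the probe sequences were not used here, so the values cannot be assigned with certainty to 1 gene of each pair.

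Alas2 encodes the erythroid form of 5-aminolevulinate synthase, the enzyme that starts haem synthesis in red cell precursors (chrX:150547417-150570622). Its signal was 1363 in WT spinal cord, 3390 in spinal cord labelled KO, 251 in WT duodenum and 87.1 in duodenum labelled KO, with normalized log2 levels of 0.59, 1.80, 1.88 and −1.89. Alas2 therefore had the array order of the globin probes by signal, although its transcript shares no sequence family with them. Slc4a1 encodes band 3, the anion exchanger of the red cell membrane (chr11:102348820-102365281), and is also used by kidney. It read 397, 1238, 10.7 and 12.0 in the same order. Its 2 duodenum signals were close to each other and far below both spinal cord signals, and the normalized log2 levels of −2.66 and −4.75 in duodenum differ because the arrays were scaled by 68.0 and 323. In spinal cord the normalized levels were −1.19 and 0.35.

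Epb42, which encodes protein 4.2 of the red cell membrane skeleton (chr2:121017891-121036877), gave signals of 5.11 in WT and 17.8 in KO-labelled spinal cord. Klf1, the erythroid factor that activates the adult beta globin gene (chr8:84901982-84905291), gave 10.8 and 45.8. Both were well above background on both spinal cord arrays, though close to it. In the duodenum neither was well above background on either array, with signals between 1.03 and 3.49, so no difference between the genotype labels is given there.

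**Figure D1:**
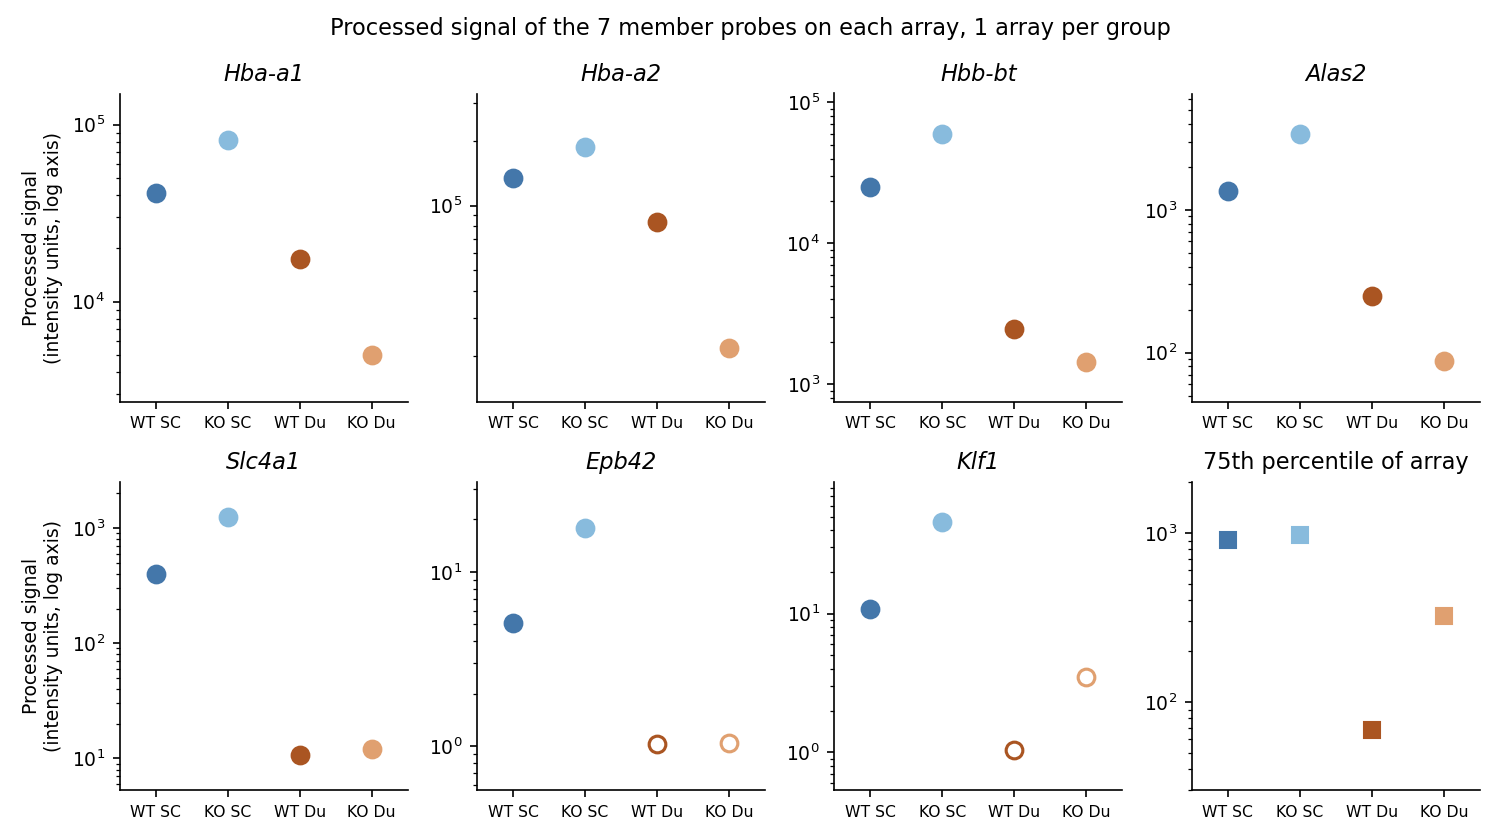
Processed signal (intensity units, log axis) of the probes of the 7 matched genes on the WT and KO-labelled arrays of spinal cord (SC) and duodenum (Du), with the 75th percentile of each array in the last panel; each point is 1 array and open points were not well above background. The KO-labelled array is the higher of the spinal cord pair for all 7 genes, from 5.11 against 17.8 for Epb42 to 135078 against 186448 for Hba-a2.

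In the duodenum, all 5 genes that could be measured had lower normalized levels on the array labelled KO than on the WT array. The difference (KO-labelled minus WT, log2) was −4.05 for Hba-a1, −4.19 for Hba-a2, −3.01 for Hbb-bt, −3.77 for Alas2 and −2.09 for Slc4a1, or 16.5-, 18.2-, 8.07-, 13.7- and 4.25-fold. The technical SD, taken from probes with 10 spots per array and blind to differences between mice, was 0.067 to 0.084 for the first 4 and 0.24 for Slc4a1. The alpha globin values differed from each other by about their summed technical SDs, and Slc4a1 and Hbb-bt stood apart from them by more. The median was −3.77, against −0.11 over 16816 genes measured on both arrays, whose quartiles were −0.67 and 0.41. All 5 were at least 2-fold lower, against 11.9% of 21435 genes at least 2-fold lower and 7.2% at least 2-fold higher. Because the genes were selected on this contrast, nothing is read from that count.

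The size of the duodenum difference rests on the scaling. Before scaling, the signal was lower on the array labelled KO by 3.48-fold for Hba-a1, 3.84-fold for Hba-a2, 1.70-fold for Hbb-bt and 2.88-fold for Alas2, and it was 1.12-fold higher for Slc4a1. The 75th percentile of the array labelled KO was the higher of the pair. Relative to the median gene the differences were −3.93, −4.07, −2.90, −3.66 and −1.97 in the order of the paragraph above. With the arrays scaled on 8 spiked-in control probes, the median gene differed by 2.89, and the 5 differences ran from −1.18 for Hba-a2 to 0.92 for Slc4a1, with Hbb-bt at −0.0073. Under quantile normalization of the 4 arrays the median of the 5 was −2.60.

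In the spinal cord, all 7 genes had higher levels on the array labelled KO. The log2 difference was 0.36 for Hba-a2 (1.29-fold), 0.89 for Hba-a1 (1.86-fold), 1.16 for Hbb-bt (2.23-fold) and 1.21 for Alas2 (2.32-fold), with technical SDs of 0.057 to 0.059. It was 1.54 ± 0.059 for Slc4a1 (2.91-fold), 1.70 ± 0.33 for Epb42 (3.24-fold) and 1.99 ± 0.17 for Klf1 (3.97-fold), where ± is the technical SD. In this order of size, Hbb-bt and Alas2 differed from each other by less than their summed technical SDs, as did Slc4a1 and Epb42, and Epb42 and Klf1. Alas2 and Slc4a1 differed by more than theirs, as did the globin genes among themselves. The globin differences were the smallest and those of the dim membrane and transcription factor probes the largest. The median was 1.21 against −0.04 for 24166 genes, with quartiles of −0.16 and 0.10. At least 2-fold higher were 5 of the 7, against 2.28% of 25217 genes (0.864% were at least 2-fold lower). For the dim probes the size depended on background handling: with normexp correction and flagged local backgrounds replaced, Epb42 differed by 0.21 and Klf1 by 0.44, and with plain normexp by −2.14 and −1.78, the other direction.

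**Figure D2:**
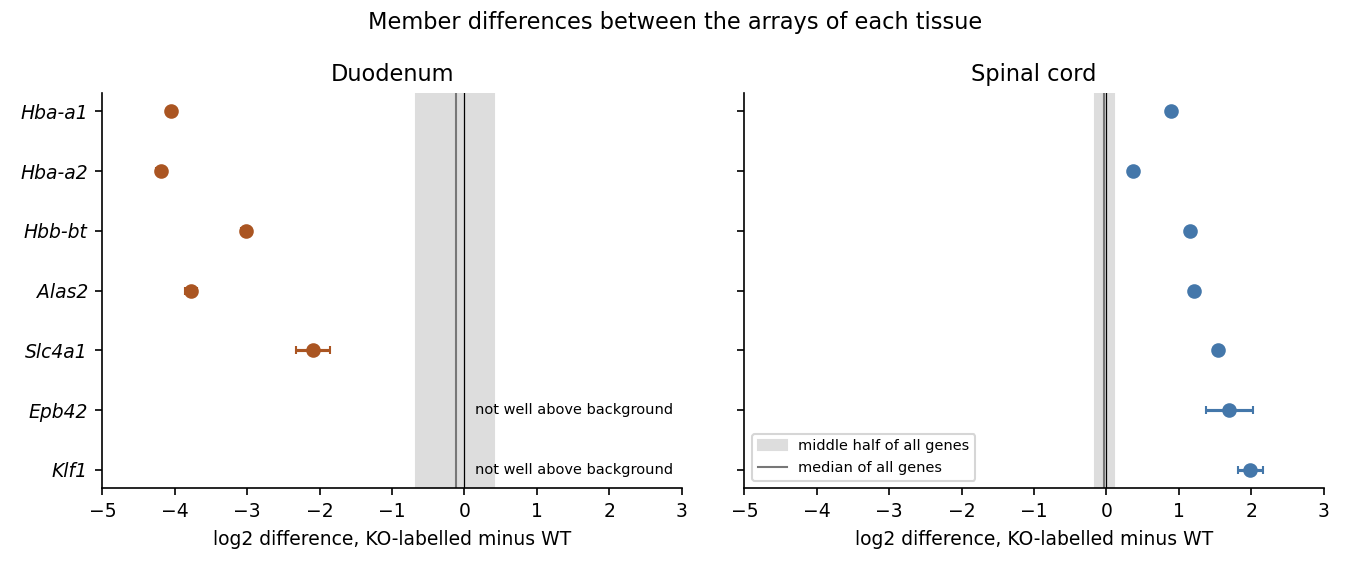
Log2 difference (KO-labelled minus WT array) of each gene in duodenum and spinal cord, with bars for the technical SD of spots. The band runs between the quartiles of all genes and the line is their median. The 5 measured genes lie from −4.19 to −2.09 in the duodenum and the 7 from 0.36 to 1.99 in the spinal cord.

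The spread of all genes was wider in the duodenum than in the spinal cord and changed with brightness. Among the 168 brightest genes in the duodenum the median difference was −1.30 and 70.2% were at least 2-fold lower on the array labelled KO, and Hba-a2 was 1 of them. With the genes split into 10 bins of equal size by level, the median was −0.52 in the brightest bin, which held both alpha globin genes, −0.24 in the next, which held Hbb-bt, 0.11 in the fifth, which held Alas2, and −0.62 in the dimmest, which held Slc4a1. In the spinal cord the medians of the 10 bins lay between −0.06 and −0.02. The part of the brightness trend in the members' values was not tested.

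**Figure D3:**
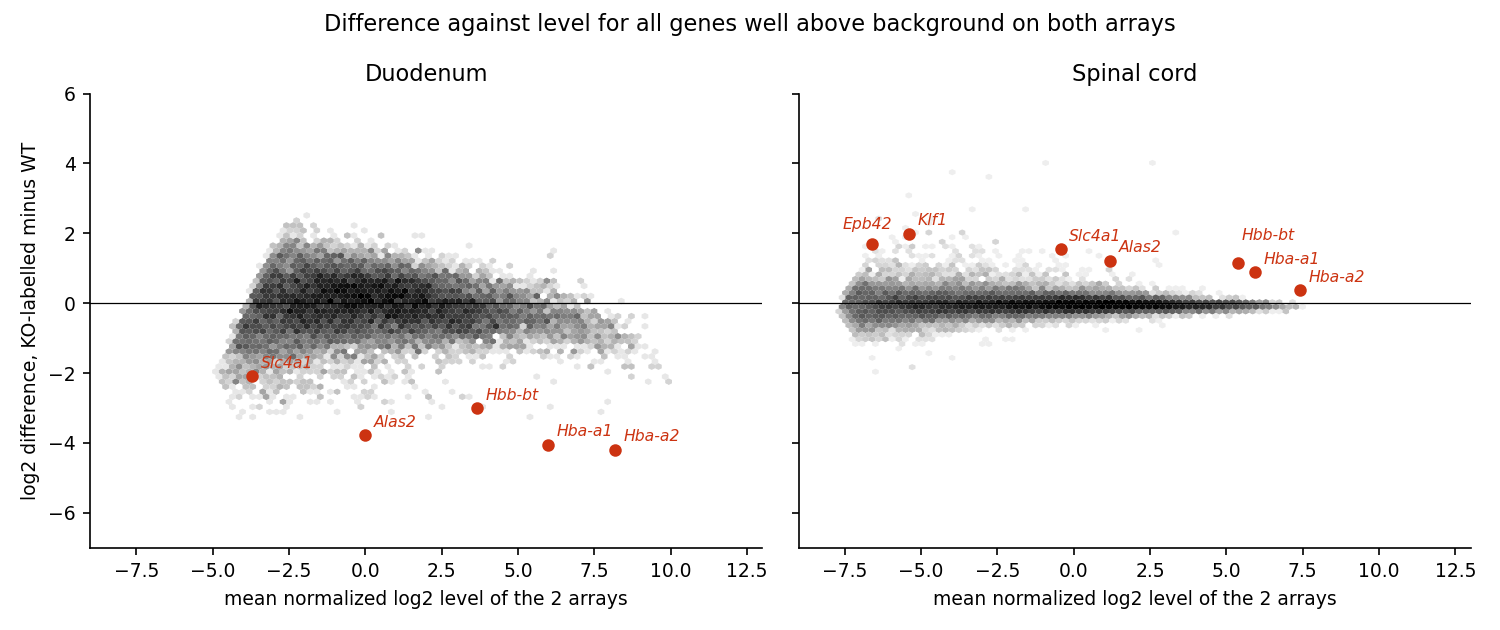
Log2 difference (KO-labelled minus WT) against the mean normalized log2 level for all genes well above background on both arrays of a tissue (grey, darker where genes are denser), with the members in red. In the duodenum Alas2 (−3.77) lies near the middle of the level axis and below the grey cloud at its level, while Slc4a1 (−2.09) lies at its dim edge among other genes.

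The same arrays were also read across the tissues, so these values share arrays with those above. In the WT pair, the duodenum minus spinal cord difference was 2.51 for Hba-a1, 3.05 for Hba-a2, 0.38 for Hbb-bt, 1.29 for Alas2 and −1.47 for Slc4a1, with a median of 1.29 against 0.63 for all genes. The direction of the 5 was therefore mixed, and it followed the scaling: the median was −0.42 under quantile normalization of the 4 arrays and −3.74 with spiked-in controls, when the median gene differed by −4.41. Set against the median gene, it was 0.66 as scaled here and −0.76 under quantile normalization of the 4 arrays. In the KO-labelled pair all 5 were lower in the duodenum, with differences of −2.43, −1.51, −3.79, −3.69 and −5.10 in the same order. Klf1, measured only on the spinal cord array of that pair, was at least 3.52-fold lower in the duodenum, and Epb42 at least 1.36-fold lower. The median over the 7 was −2.43 against 0.30 for all genes and −3.69 over the 5 without bounds, and it stayed below 0 under all 9 alternatives, from −4.99 to −2.16.

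Other adult globin genes differed in the same directions as the members. Hbb-bs, an adult beta globin gene, had signals of 3211 and 8194 in WT and KO-labelled spinal cord and 202 and 166 in WT and KO-labelled duodenum. Hbb-b2 read 4009, 9695, 335 and 227. Their duodenum differences were −2.53 and −2.81 and their spinal cord differences 1.25 and 1.17, although probes of the beta genes may share transcripts. With spiked-in controls the duodenum median of both turned to 0.33, still below the 2.89 of the median gene. The embryonic genes Hbb-bh1 and Hbb-y, well above background in the spinal cord with signals of 8.85 to 17.0, differed by −0.08 and 0.19, and the theta globin genes Hbq1a and Hbq1b by 0.40 and 0.67. Hbb-bh2 and Hba-x were not well above background on any array. The summed signal of the 8 other globin genes with a probe leaves out the members Hba-a1, Hba-a2 and Hbb-bt. As a multiple of the 75th percentile it was 8.04 and 18.5 in WT and KO-labelled spinal cord and 8.04 and 1.25 in WT and KO-labelled duodenum.

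The other enzymes of haem synthesis, which all tissues use, were mostly within 2-fold. Of 8, none was at least 2-fold apart in the spinal cord (median 0.13), and in the duodenum 1 was at least 2-fold higher and none lower (median 0.07). Alas1, the synthase of non-erythroid cells, had a difference of −0.29 in duodenum and −0.14 in spinal cord. Urod, Cpox and Fech gave 0.45, 0.84 and −0.34 in duodenum and 0.01, 0.27 and 0.15 in spinal cord. Uros, the 1 enzyme past 2-fold, differed by 1.98 in the duodenum.

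Among 16 genes of the red cell membrane and its skeleton, the partners of band 3 and protein 4.2, 6 were at least 2-fold higher and none lower on the KO-labelled spinal cord array, with a median of 0.21. They included Rhag (1.88), Kel (1.84), Gypc (1.58) and Rhd (1.51), named after their values were seen, which encode members of the Rh complex, the Kell antigen and glycophorin C. The 4 genes of the list with the highest mean over all 4 arrays, Slc2a1, Epb41, Cd59a and Ermap, differed by −0.23, 0.11, 0.06 and −0.17, and Sptb and Ank1 by −0.02 and −0.01. Slc2a1, Epb41, Sptb and Ank1 are also used by neural tissue. Rhag had spinal cord signals of 7.36 and 29.1, and with normexp and flagged backgrounds replaced it differed by 0.28, against 1.04 for Kel, 1.31 for Gypc and 1.29 for Rhd. In the duodenum 6 of the 16 could be read, 1 at least 2-fold higher and none lower (median 0.30). Of the 16, 5 were well above background on the WT duodenum array and 12 on that labelled KO. Sptb, Ank1, Rhd, Icam4, Add2 and Dmtn were so only on the array labelled KO, and no bound could be given. The signals of Rhd were 1.38 and 10.8 and those of Icam4 1.06 and 11.4, in WT and KO-labelled duodenum.

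Of 10 erythroid transcription and signalling genes, 3 were at least 2-fold higher in the spinal cord (median 0.23). They were Gata1 at 1.95, Gfi1b at 1.69 and Nfe2 at 1.25, all 3 used by both red cell and platelet precursors and named after their values were seen. With normexp and flagged backgrounds replaced, Gata1 differed by 0.995, Gfi1b by 0.53 and Nfe2 by 1.02. The 4 with the highest mean over all arrays, Hemgn, Zfpm1, Bcl11a and Tfrc, differed by −0.12, −0.02, −0.11 and −0.22. In the duodenum 9 could be read, with a median of −0.36. At least 2-fold lower were 3, against 11.9% of 21435 genes: Gfi1b at −2.03, Nfe2 at −1.22 and Zfpm1 at −1.17. Before scaling, the signals of these 3 were higher on the array labelled KO (36.7, 13.4 and 6837, against 31.7, 6.56 and 3244 for WT). With spiked-in controls they differed by 0.97, 1.79 and 1.83, against 2.89 for the median gene. Under quantile normalization of the 4 arrays they differed by −1.97, −1.16 and −0.68, and with replaced backgrounds by −1.55, −1.44 and −0.58. Gata1 was not well above background on either duodenum array. Of 14 late erythroid genes, 3 were at least 2-fold higher in the spinal cord (median 0.25), Trim10 at 1.64, Isg20 at 1.08 and Tent5c at 1.02 (0.65, 0.98 and 0.91 with replaced backgrounds), and Bnip3l, Fbxo7, Slc25a37 and Slc25a38 differed by 0.16, −0.11, 0.62 and −0.04. In the duodenum 1 of 11 was higher and 1 lower past 2-fold, with a median of 0.26.

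Of 10 red cell enzymes and channels, 2 were at least 2-fold higher in the spinal cord, the water channel gene Aqp1 at 1.70 and the carbonic anhydrase gene Car1 at 1.19, with a median of 0.13. With replaced backgrounds they differed by 1.5 and 0.66. Gpx1, Hk1 and Prdx2, which most tissues express, differed by 0.21, −0.08 and 0.03. In the duodenum 1 of 9 was at least 2-fold higher, none lower, and Aqp1 differed by −0.04. Of 9 genes for uptake and breakdown of haemoglobin and haem, 1 was at least 2-fold higher in the spinal cord, the haptoglobin gene Hp at 1.04, and none of 6 in the duodenum (medians 0.31 and −0.0045). The brightest of these over all arrays, Hmox2, Slc40a1, Lrp1 and Blvra, differed by 0.04, 0.31, −0.16 and 0.01 in the spinal cord. The haem oxygenase gene Hmox1 differed by 0.68 in the spinal cord and 0.09 in the duodenum.

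**Figure D4:**
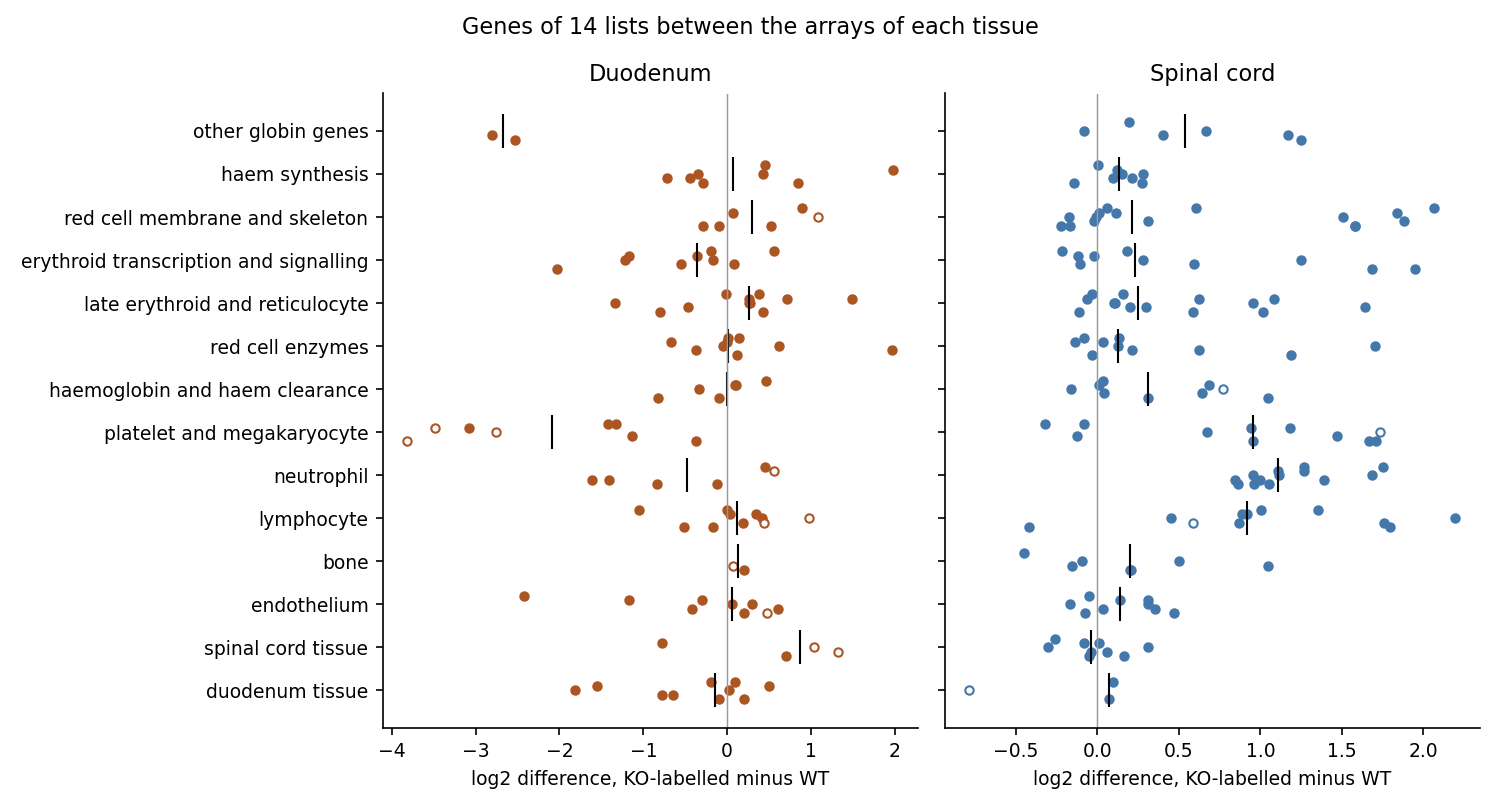
Log2 difference (KO-labelled minus WT) of each gene of 14 lists in duodenum and spinal cord, with a black tick at the median of a list. Filled points were well above background on both arrays and open points are bounds. In the spinal cord all 13 neutrophil genes lie between 0.85 and 1.76. In the duodenum 7 of the 8 platelet genes with a value lie at −1.13 or below, some as bounds for genes measured only on the WT array.

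Most markers of other blood cells were also higher on the spinal cord array labelled KO, apart from 3 of 11 platelet genes and 1 of 11 lymphocyte genes. All 13 neutrophil genes were higher on the array labelled KO, 8 of them at least 2-fold, with a median of 1.11, and their summed signal was 64.0 and 124 times the 75th percentile on the WT and the KO-labelled array. S100a9, Ltf, Lcn2 and Retnlg differed by 0.85, 1.27, 0.96 and 0.86. The granule genes Mpo and Ctsg, made by immature neutrophils in marrow, differed by 1.69 and 1.76. Of 11 platelet genes 5 were at least 2-fold higher (median 0.96, summed signal 1.06 and 2.50 times the 75th percentile), and Pf4, Gp9, Clec1b and Gp1bb differed by 1.47, 0.94, 0.96 and −0.08. Of 11 lymphocyte genes 5 were at least 2-fold higher (median 0.92, summed signal 0.64 and 1.20 times). The T cell receptor genes Cd3e and Cd3d differed by −0.42 and 0.87, and the B cell genes Cd79b and Vpreb3 by 1.79 and 1.35. Bone genes gave a median of 0.20 with 1 of 7 at least 2-fold higher, and endothelial genes a median of 0.14 with none. The part of these cells in the members' values was not tested.

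In the duodenum most platelet genes that could be read were lower on the array labelled KO, and several neutrophil genes were not well above background. Of 8 platelet genes that could be read, 7 were at least 2-fold lower, against 11.9% of 21435 genes. The median of the 8 was −2.09, and the summed signal of the list was 4.81 and 2.0 times the 75th percentile. Ppbp, Itga2b and Treml1 were well above background only on the WT array and entered as bounds. Gp5 and Gp6 were so only on the array labelled KO, and no bound could be given. Their signals were 1.77 and 7.35 for Gp5 and 2.95 and 11.4 for Gp6, in WT and KO-labelled duodenum. Pf4, Gp9, Gp1bb and Clec1b differed by −1.13, −3.08, −1.32 and −0.38, and Ppbp was at least 3.82 log2 units lower. With spiked-in controls the platelet median turned to 1.59, again below the median gene. The genes behind that median differ: Itga2b had no bound there, while Gp5 and Gp6 entered as bounds of 1.53 and 2.16. S100a8, Ngp and Mpo were not well above background on either duodenum array, and 2 of 6 readable neutrophil genes were at least 2-fold lower (median −0.48, summed signal 2.83 and 1.91 times the 75th percentile). Lymphocyte genes had a median of 0.11 and endothelial genes of 0.06, with 1 of 10 and 2 of 9 at least 2-fold lower.

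Profiles over the 4 arrays were compared with the mean profile of the 5 members well above background on all of them, each centred on its own mean, among 16180 genes. The nearest by root mean square distance were Cdh6 (0.43 log2 units), Hbb-b2 (0.44), Amer3 (0.44), Mdh1b (0.44), Hoxb3 (0.47), an unnamed transcript (0.49), Nrgn (0.49), Pmp22 (0.50), Csrnp3 (0.50) and Fgf14 (0.51), over 4 arrays only. The members' own distances ran from 0.15 for Alas2 to 1.21 for Slc4a1. All 10 were lower on the KO-labelled duodenum array, with differences of −3.78 to −2.53. In the spinal cord, Hbb-b2 (1.17) and Pmp22 (1.98) were higher on the array labelled KO, and the other 8 differed by −0.20 to 0.19.

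**Figure D5:**
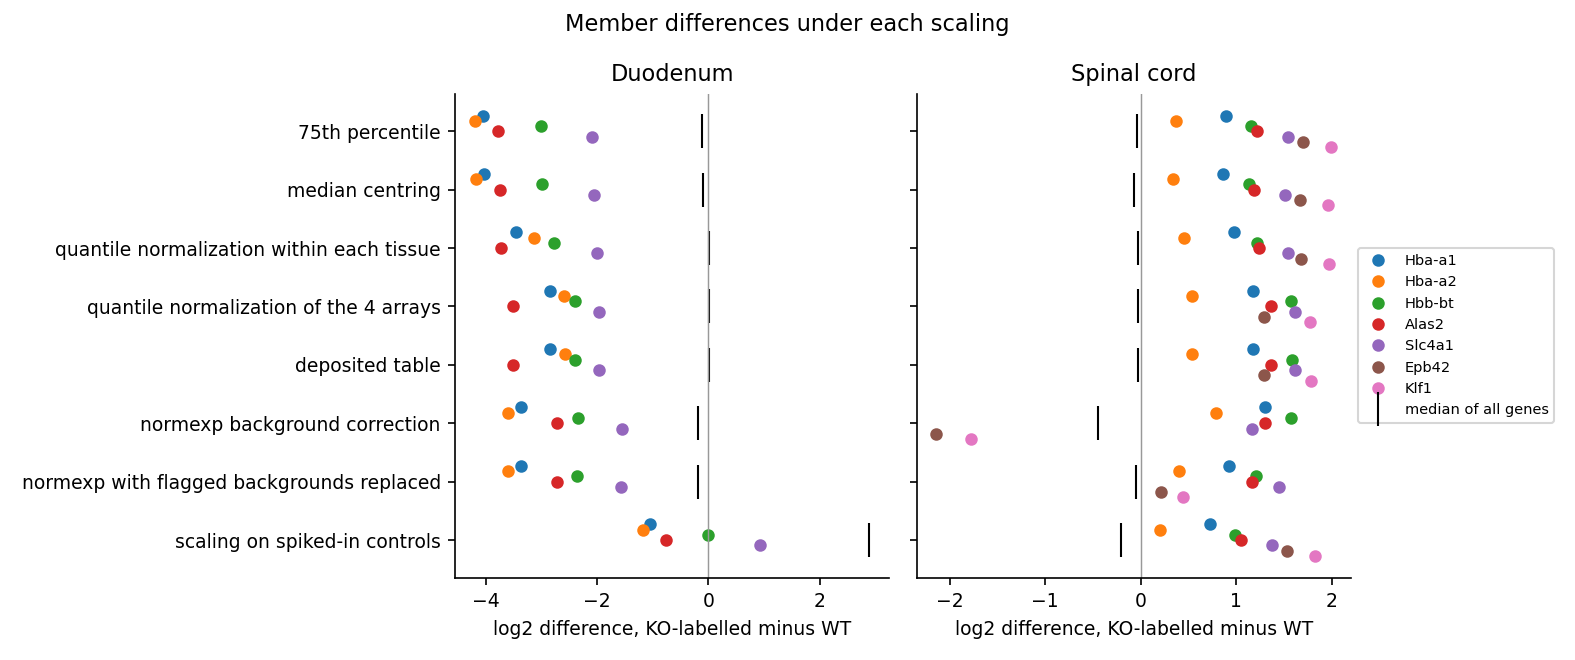
Log2 difference (KO-labelled minus WT) of each member under 8 ways to scale or correct the arrays, with a black tick at the median of all genes under each. In the duodenum all 5 measured members lie below the tick in each row, and with spiked-in controls the tick moves to 2.89. In the spinal cord Epb42 and Klf1 fall below 0 under plain normexp correction.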

How the data were processed

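The authors deposited the output of Agilent Feature Extraction 11.5.1.1 for each array and a table of log2 values. In the deposited scanner files the processed signal is an intensity from which the software had removed background and spatial trends. From its values that deposited table holds log2 of the processed signal, quantile normalized over the 4 arrays: values rebuilt this way differed by a median of at most 0.0023 per array.

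Here control spots and outlier spots were left out (89 to 133 of 43020 per array), spots of a probe were averaged as log2 intensity, and the 75th percentile of the array was subtracted. No spot was saturated. Of 26391 probes with an NM accession, 25868 were named through RefSeq (GRCm38.p6), and a gene took its probe with the highest mean. Each member had 1 probe. A probe not well above background on 1 array gives a bound, set against its own value there or, if higher, the lowest normalized level of any probe above background (−7.66, −7.82, −3.99 and −6.22 in WT and KO-labelled spinal cord and WT and KO-labelled duodenum). Where the level on the other array did not exceed that limit, no bound is given. Counts of genes past 2-fold cover genes that either array of the pair measured above background. The technical SD came from the 50 probes nearest in brightness among 399 spotted 10 times. The number of arrays limits the precision.

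Members and the 14 gene lists were chosen with earlier results of these data known. The rule for named genes took the members, Ip6k2, the 10 nearest profiles and up to 4 genes of a list with the highest mean over the 4 arrays. Bone, vessel and tissue lists are given as counts and medians. Other genes named from the lists (in the haem, late erythroid, enzyme, clearance, neutrophil and platelet lists Uros, Trim10, Isg20, Tent5c, Car1, Hp, Hmox1, Mpo, Ctsg, S100a8, Ngp and Ppbp, the embryonic globin genes, and Sptb, Ank1 and those so marked in the text) were chosen after their values were seen. The same holds for Itga2b, Treml1, Gp5 and Gp6 in the platelet list and for Icam4, Add2 and Dmtn in the membrane list. All arrays shared 1 slide and 1 scan, so no batch could be separated. Alternatives were quantile normalization, median centring, spiked-in controls (8 probes), normexp (offset 50, limma 3.58.1, R 4.3.3), the deposited table, other filters and a 1.5-fold limit. The calculations were tested on simulated data and run in Python 3.11.15 (pandas 2.3.3, numpy 2.4.6).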

Additional observations from a re-analysis of the deposited data

Results flagged for a closer look

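In normalized log2 levels, the KO-labelled minus WT difference ran in opposite directions in the 2 tissues for the 5 members read in both. It was negative in the duodenum and positive in the spinal cord. The duodenum difference minus the spinal cord difference was −4.94 for Hba-a1, −4.55 for Hba-a2, −4.17 for Hbb-bt, −4.99 for Alas2 and −3.63 for Slc4a1, in log2 units. The opposite direction did not hold under every scaling. Before scaling, Slc4a1 was 1.12-fold higher on the duodenum array labelled KO than on the WT array. With spiked-in controls its duodenum difference was 0.92, and that of Hbb-bt was −0.0073. Those of Hba-a1, Hba-a2 and Alas2 stayed negative with these controls, at −1.04, −1.18 and −0.77. With 1 array in each group the difference between the tissues was not tested.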

How the results depend on the processing

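The duodenum median of −3.77 was −2.60 under quantile normalization of the 4 arrays, −3.13 within each tissue, −0.77 with spiked-in controls, −2.71 with normexp, −2.72 with flagged backgrounds replaced and −2.58 in the deposited table. The spinal cord median of 1.21 was 1.36, 1.04 and 0.92 under quantile normalization of the 4 arrays, spiked-in controls and normexp with replaced backgrounds, and 1.36 in the deposited table. The WT duodenum minus spinal cord median of 1.29 was −0.42, −1.40, −3.74 and −0.44 under quantile normalization of the 4 arrays, within each tissue, spiked-in controls and the deposited table, and 1.51, 0.83 and 0.70 under median centring, normexp and normexp with replaced backgrounds. Relative to the median gene it was 0.66 as reported, and −0.76, 0.68 and 0.66 under the first 3 of these. The KO-labelled median of −2.43 was −3.80, −4.99, −2.16, −4.30, −2.97, −2.97 and −3.80 under quantile normalization over all arrays or inside a tissue, median centring, spiked-in controls, normexp, normexp with replaced backgrounds and the deposited table, and −3.69 over the members measured on both arrays. Both normexp values of that pair rest on 5 of the 7 members, since no bound could be given for Epb42 and Klf1. Members at least 2-fold lower in the duodenum were 2 in place of 5 with spiked-in controls, and at least 2-fold higher in the spinal cord 3 in place of 5 under normexp with replaced backgrounds. Over all genes, the 2552 at least 2-fold lower in the duodenum became 18 with spiked-in controls, 4835 at 1.5-fold and 12540 without a filter, and the 576 at least 2-fold higher in the spinal cord became 86 under normexp, 173 with replaced backgrounds, 1318 at 1.5-fold and 1105 without a filter.

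For single members, Slc4a1 in the duodenum was 0.92 with spiked-in controls, and Epb42 and Klf1 in the spinal cord were −2.14 and −1.78 under normexp. In the WT pair, quantile normalization within each tissue gave −0.56, −0.37, −2.44 and −1.40 for Hba-a1, Hba-a2, Hbb-bt and Alas2, spiked-in controls −2.53, −1.99, −4.65 and −3.74, quantile normalization of the 4 arrays −0.42 for Hba-a2 and −1.12 for Hbb-bt, the deposited table −0.44 and −1.13 for the same 2, and normexp with replaced backgrounds −0.35 for Hbb-bt and 0.038 for Slc4a1. Among the members' values under alternatives, 54 moved by less than the technical SD, 117 moved by more and 17 changed direction. The 54 do not measure stability. The mean of a gene's probes, 1 of the alternatives, could not move a member with 1 probe. Median centring shifted all members of a pair alike, the duodenum median from −3.77 to −3.75 and the spinal cord median from 1.21 to 1.18. The deposited table nearly repeats quantile normalization of the 4 arrays. The cause of the changes was not tested.

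No paired analysis was possible because each group has 1 array, so no replicate number pairs samples across groups. In normalized log2 levels the WT duodenum array had the highest limit of detection, −3.99, against −6.22 on the duodenum array labelled KO. These limits are relative to 75th percentiles of 68.0 and 323. Epb42 and Klf1 were not well above background on either duodenum array.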
